A study of Homo sapiens with 18 samples.

Results

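The RT-112 cells that received an AP-2 transcription factor were compared with the RT-112 cells that did not, within the 6 CAGE-seq libraries of this bladder cancer cell line out of 18 libraries in the series. The libraries with AP-2 were KA (blank control, then AP-2α), KC (blank control, then AP-2γ), WA (WWOX, then AP-2α) and WC (WWOX, then AP-2γ), and the libraries without AP-2 were KK (blank control in both transductions) and WK (WWOX, then blank control), which gives 4 against 2. A gene was retained when it reached 5 CPM (reads on a gene scaled to a common library total) in at least 1 of the 6 libraries, which left 9267 of 16575 genes, and it was a member when all 4 values with AP-2 lay above, or all 4 lay below, both values without AP-2. There were 1453 such genes (15.7% of those tested), of which 959 were higher with AP-2 (10.3%) and 494 were lower (5.33%). These shares are the result of the rule itself and carry no test.

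All 6 variants share the history of the line, namely lentiviral infection in starvation medium with polybrene, selection with puromycin after the first transduction and with G418 after the second, and the controls carry the blank vectors. AP-2α and AP-2γ were driven by a viral (CMV) promoter in a vector, and each variant is 1 stable transductant with 1 library, so the spread within the group with AP-2 is the spread between variants and not between repeats of a variant. The other lines, HT-1376 and CAL-29, hold the same 6 variants and were used only to see whether the RT-112 pattern recurred.

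AP-2 factors are DNA-binding proteins that act as dimers on GC-rich sites in promoters and enhancers, where they recruit partners that raise or lower transcription. AP-2α is encoded by TFAP2A and AP-2γ by TFAP2C, and both are known from the surface ectoderm, the epidermis and breast epithelium, where their targets include keratins, receptors and genes of terminal differentiation. WWOX is a protein with domains that bind proline-rich motifs, AP-2 among its partners, and is known to hold some of them in the cytoplasm. The urothelium, from which RT-112 derives, is a stratified epithelium with basal cells marked by KRT5 and TP63 and luminal cells marked by uroplakins, GATA3 and PPARG. CAGE-seq counts the capped 5′ ends of RNA, so each value is the number of transcripts that start at a gene's promoters and does not depend on transcript length.

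The libraries held 15636025 to 17958572 reads on genes, and 3 reads, the limit that a count of 0 allows, were worth 0.158 to 0.181 CPM, a limit that covers counting error only. The luminal markers GATA3 (188.67 to 259.79 CPM), KRT18 (1468.7 to 1934.25 CPM) and UPK2 (26.67 to 43.71 CPM) were present in every library and the luminal keratin KRT20 was at 0.37 CPM at most. Of the genes that mark HT-1376 (47) or CAL-29 (68), 0 reached 10% of their own line's level in any RT-112 library. The 7 measured markers of stromal, immune and endothelial cells summed to 24.37 to 42.99 CPM, with the highest sum in the library labelled WA, where CD68 was at 24.09 CPM against 6.58 to 11.75 CPM in the others. The stromal markers LUM (10.67 to 14.31 CPM) and COL1A1 (3.44 to 7.6 CPM) were present in every library, and CDH5 was at 0.05 to 1.55 CPM. CD14, COL1A2 and COL3A1 were at 0.05 CPM or less throughout. In bulk libraries, a change in the number of cells of a kind and a change in the RNA per cell cannot be told apart. The libraries labelled WA and WC stood apart from the other 4 (Pearson's r over genes 0.955 to 0.968, against 0.973 to 0.987 among those 4 and 0.985 between WA and WC), and the part of this in the results was not tested.

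The introduced genes did not follow all labels. TFAP2A (chr6:10393186-10419659) was at 20.31 CPM in WK and 18.01 CPM in KK, and at 46.77 CPM in KA, 18.97 CPM in KC, 25.32 CPM in the library labelled WA and 21.16 CPM in WC. Thus only KA was clearly raised, 2.6-fold over KK. TFAP2C (chr20:56629306-56639283) was at 56.2 CPM in WK and 57.95 CPM in KK, at 49.4 CPM in KA, 263.7 CPM in KC, 179.87 CPM in the library labelled WA and 142.75 CPM in WC. It was therefore raised in both libraries labelled with AP-2γ (4.55-fold and 2.54-fold), and also in the library labelled WA, 3.2-fold over WK, although that label names AP-2α. WWOX (chr16:78099400-79212667) was at 26.04 CPM in KK, 23.52 CPM in KA, 25.87 CPM in KC, 22.33 CPM in WK, 18.95 CPM in the library labelled WA and 18.45 CPM in WC, and was not higher in the libraries labelled with WWOX. CAGE reads of a gene's own promoters need not include a transcript that starts in a vector, so these values check the labels only in part. In the exact permutation test over the 15 ways to choose 2 of 6 libraries, two-sided p was 0.267 for TFAP2A, 0.4 for TFAP2C and 0.533 for WWOX, and 4 against 2 cannot go below 0.133. Neither AP-2 gene was a member itself, since at least 1 library with AP-2 lay within or below the controls in each.

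**Figure D1:**
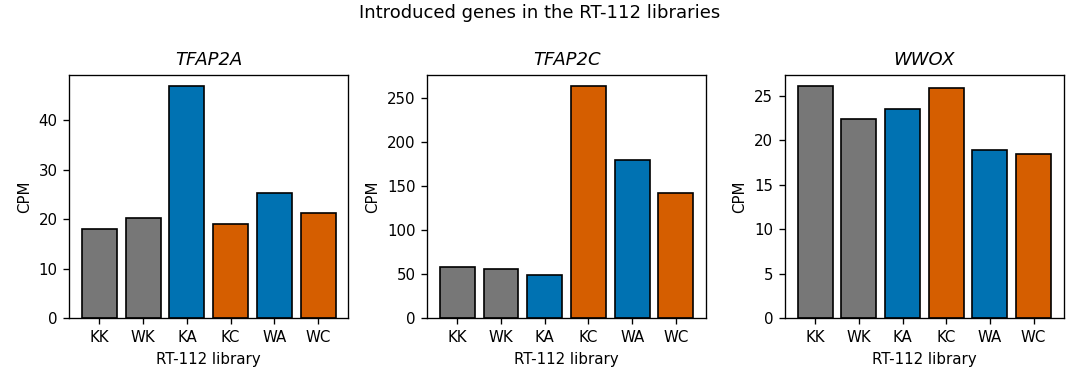
CPM of TFAP2A, TFAP2C and WWOX (vertical axes, from 0) in the 6 RT-112 libraries (horizontal axes), 1 bar per library, gray without AP-2, blue labelled AP-2α and orange labelled AP-2γ. TFAP2A stands out in KA at 46.77 CPM, and TFAP2C stands out in KC, WA and WC at 142.75 to 263.7 CPM.

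Since CAGE reads start at promoters, the sequences before the starts of members with a wide gap are shown first, as far as the RefSeq promoter table (GRCh38.p14) holds them. The 4 members higher with AP-2 are QPRT, KLK5, PADI2 and CLDN3, and the 2 lower are AHNAK2 and IVL. Each run is the 250 bases before a RefSeq start, 5′ to 3′ on the gene's strand, and KLK5 is cut to 195 bases that lie before all annotated exons. Capitals mark the letters GCCNNNGGC or GCCNNNGGG, on either strand, that are given for AP-2 sites.
QPRT, chr16:29678758-29679007, plus strand: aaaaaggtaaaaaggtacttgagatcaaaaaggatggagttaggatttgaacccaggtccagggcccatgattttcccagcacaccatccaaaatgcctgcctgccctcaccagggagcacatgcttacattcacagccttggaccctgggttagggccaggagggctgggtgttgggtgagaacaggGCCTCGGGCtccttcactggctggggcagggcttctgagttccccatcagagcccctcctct
KLK5, chr19:50953094-50953288, minus strand: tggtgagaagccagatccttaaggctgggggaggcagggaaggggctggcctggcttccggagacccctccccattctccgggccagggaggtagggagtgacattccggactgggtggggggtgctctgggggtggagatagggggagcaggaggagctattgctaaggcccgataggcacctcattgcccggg
PADI2, chr1:17119452-17119701, minus strand: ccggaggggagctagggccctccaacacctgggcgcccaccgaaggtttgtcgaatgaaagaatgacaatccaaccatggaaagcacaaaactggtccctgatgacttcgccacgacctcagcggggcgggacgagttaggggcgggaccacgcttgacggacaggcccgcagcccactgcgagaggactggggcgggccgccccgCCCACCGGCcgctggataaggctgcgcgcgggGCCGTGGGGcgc
CLDN3, chr7:73770271-73770520, minus strand: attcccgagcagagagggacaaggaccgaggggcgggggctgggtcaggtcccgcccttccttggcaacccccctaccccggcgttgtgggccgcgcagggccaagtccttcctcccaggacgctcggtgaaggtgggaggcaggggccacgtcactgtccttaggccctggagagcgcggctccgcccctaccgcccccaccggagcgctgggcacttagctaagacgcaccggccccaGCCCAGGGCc
AHNAK2, chr14:104978375-104978624, minus strand: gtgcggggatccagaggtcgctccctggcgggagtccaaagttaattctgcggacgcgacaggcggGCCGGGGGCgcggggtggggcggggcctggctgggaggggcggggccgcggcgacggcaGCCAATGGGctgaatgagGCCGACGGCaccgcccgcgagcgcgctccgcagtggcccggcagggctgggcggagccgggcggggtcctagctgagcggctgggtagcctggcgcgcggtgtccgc
IVL, chr1:152908296-152908545, plus strand: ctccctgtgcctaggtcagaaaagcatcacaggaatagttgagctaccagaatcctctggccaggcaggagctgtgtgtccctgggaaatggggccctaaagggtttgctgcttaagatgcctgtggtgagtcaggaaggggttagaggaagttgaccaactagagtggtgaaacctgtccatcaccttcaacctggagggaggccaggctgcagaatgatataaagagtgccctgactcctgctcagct
QPRT and CLDN3 held 1 match each, PADI2 held 2, AHNAK2 held 3 that do not overlap, and KLK5 and IVL held 0. Of 35116 RefSeq promoters, 19.8% held GCCNNNGGC and 32.1% held GCCNNNGGG in the 250 bases before the start. A match is a description of letters and not a site, and matches were seen both in members higher and in a member lower with AP-2. The shares were not compared between members and other genes, since 79.1% of the higher and 77.7% of the lower members had a promoter in the table, short of the 80% set for such a check. SUSD2, MMP2, PADI3, KLK8 and PHGR1 had no entry in the table.

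Across all genes, 3 of 9267 rose with AP-2 at an adjusted p under 0.05 (0.0324%) and 0 fell in limma on log2(CPM + 0.5) with Benjamini-Hochberg adjustment, while 414 higher (4.47%) and 174 lower (1.88%) had an unadjusted p under 0.05. SUSD2, QPRT and L1CAM are the 3 genes that rose. All 3 were under 5 CPM in KK and WK and passed the filter only through libraries with AP-2. Their calls are therefore a description and no independent test. With the first transduction (blank control or WWOX) as a block, which the design supports because the second transduction was made on cells with or without WWOX, 14 genes rose (0.151%) and 1 fell (0.0108%), with 575 higher (6.2%) and 289 lower (3.12%) at an unadjusted p under 0.05. The calls rest on few libraries, since none of the 3 remained when KK, WK, WC or the library labelled WA was left out, and edgeR on recovered reads called 0 genes (445 higher and 195 lower at an unadjusted p under 0.05).

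SUSD2 (sushi domain containing 2, a membrane protein, ENSG00000099994.11, chr22:24181487-24189106) showed the widest gap of all members. It was at 0.06 CPM in KK, which is below the limit that a count of 0 allows, and at 0.54 CPM in WK, and it was at 26.36 CPM in KA, 90.27 CPM in KC, 29.46 CPM in the library labelled WA and 33.94 CPM in WC. The groups did not overlap, and the lowest library with AP-2 lay 4.69 above the highest without on the log2 scale. The difference was 5.71 ± 0.50 (log2, SE, 4 against 2; limma adjusted p = 0.0225, and 0.00443 with the block). QPRT (quinolinate phosphoribosyltransferase, an enzyme of NAD synthesis, ENSG00000103485.19, chr16:29663279-29698699) was at 4.14 CPM in WK, 2.99 CPM in KK, 18.1 CPM in KA, 17.69 CPM in KC, 25.27 CPM in the library labelled WA and 19.95 CPM in WC. Its 4 values with AP-2 were close to each other and its difference was 2.35 ± 0.22 (log2, SE; limma adjusted p = 0.0225, and 0.00424 with the block).

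L1CAM (a neural cell adhesion molecule, ENSG00000198910.14, chrX:153861514-153886173) was at 0.98 CPM in WK, 0.39 CPM in KK, 12.73 CPM in KA, 30.68 CPM in KC, 12.74 CPM in the library labelled WA and 27.85 CPM in WC. Both libraries labelled AP-2γ lay above both labelled AP-2α. Its difference was 4.11 ± 0.43 (log2, SE; limma adjusted p = 0.0377, and 0.0136 with the block). KLK5 (kallikrein 5, a serine protease that starts the shedding of corneocytes, chr19:50943303-50953093) was at 5.99 CPM in WK, 1.22 CPM in KK, 35.93 CPM in KA, 73.38 CPM in KC, 76.3 CPM in the library labelled WA and 112.07 CPM in WC. It was the member with the second largest difference on the log2 scale among those named, 4.38 ± 0.57 (SE), with a limma adjusted p of 0.0931, and of 0.00424 with the block.

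PADI2 and PADI3 convert arginine to citrulline in proteins such as keratins and filaggrin and are neighbours on chromosome 1. PADI2 was at 9.26 CPM in WK and 5.82 CPM in KK, and at 43.67 CPM in KA, 81.02 CPM in KC, 29.74 CPM in the library labelled WA and 29.06 CPM in WC (difference 2.43 ± 0.41; limma adjusted p = 0.209, and 0.0798 with the block). PADI3 was at 5.83 CPM in WK and 7.7 CPM in KK, and at 20.99 CPM in KA, 24.37 CPM in KC, 36.56 CPM in the library labelled WA and 43.65 CPM in WC (difference 2.09 ± 0.31; limma adjusted p = 0.125, and 0.0348 with the block). The highest libraries therefore differed, since PADI2 was highest in the variants without WWOX and PADI3 in those with it. PADI1, which lies between them, was not a member (10.24 to 14.63 CPM without AP-2 and 10.55 to 23.31 CPM with it). KLK8, another kallikrein of the same cluster on chromosome 19, was at 23.8 CPM in WK and 10.86 CPM in KK, and at 54.3 to 71.19 CPM in the 4 libraries with AP-2 (difference 1.90 ± 0.29; limma adjusted p = 0.14, and 0.0337 with the block). Between KLK5 and KLK8 on the chromosome, KLK6 overlapped between the groups (8.31 and 14.98 CPM without AP-2, 7.35 to 17.1 CPM with it) and KLK7 was at 0.06 CPM or less. Of 13 kallikreins in the table, 4 were tested and 2 were members, and the PADI and KLK families were looked at after their values were seen.

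CASP14, a protease of the cornified layer, was at 12.91 CPM in WK and 9.7 CPM in KK, and at 24.41 to 36.4 CPM with AP-2 (difference 1.46 ± 0.22; limma adjusted p = 0.125, and 0.041 with the block). PHGR1, a small protein known from intestinal epithelium, was at 8.77 CPM in WK and 8.98 CPM in KK, and at 67.98 CPM in KA, 70.07 CPM in KC, 34.71 CPM in the library labelled WA and 42.62 CPM in WC (difference 2.47 ± 0.30; limma adjusted p = 0.0838, and 0.00443 with the block). SPDEF, an ETS factor of secretory epithelial cells, was at 2.61 CPM in WK, 0.22 CPM in KK, 15.52 CPM in KA, 23.62 CPM in KC, 7.21 CPM in the library labelled WA and 9.16 CPM in WC. In PHGR1 and SPDEF the 2 libraries with AP-2 after the blank control lay above the 2 after WWOX, although all 4 exceeded both controls. The difference of SPDEF was 3.12 ± 0.63 with an adjusted p of 0.331 in limma and 0.187 with the block. Pairs of RT-112 values without AP-2 are given for KK and then WK from here on. MAB21L4 (3.55 and 4.74 CPM without AP-2, 10.1 to 22.53 CPM with it) was called with the block alone (limma adjusted p = 0.178, and 0.0413 with the block), whereas AOC1, which breaks down histamine and other diamines (3.77 and 6.26 CPM, against 10.91 to 20.26 CPM), ATP11B, a phospholipid flippase (6.59 and 6.92 CPM, against 13.15 to 15.66 CPM), and FOXO6, a forkhead factor (4.88 and 4.74 CPM, against 8.37 to 12.63 CPM), were not called in either fit. MAB21L4 was under 5 CPM in KK and WK and passed the filter only through libraries with AP-2. Its call is therefore a description and no independent test.

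**Figure D2:**
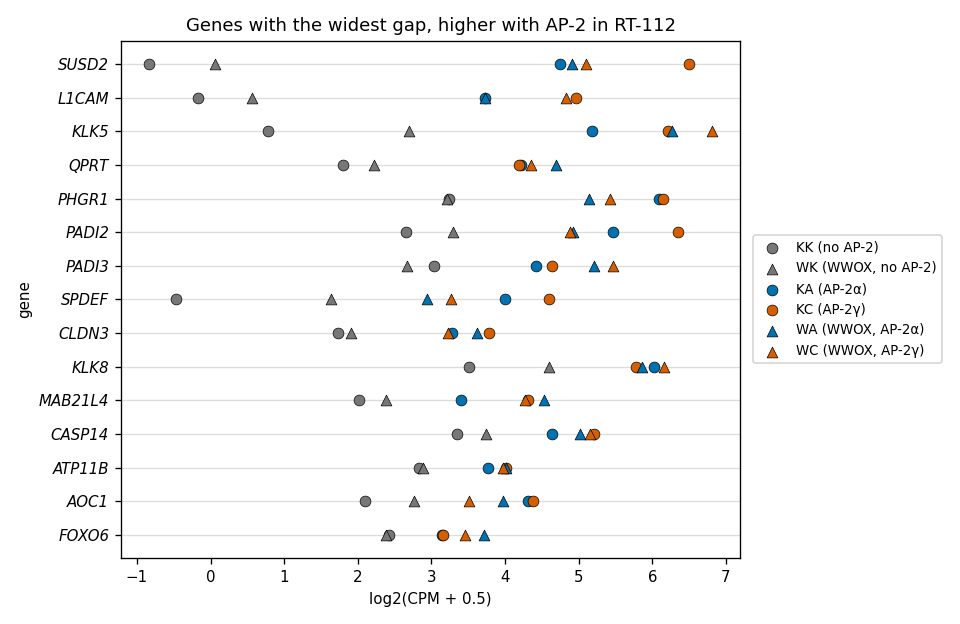
log2(CPM + 0.5) (horizontal axis) of the 15 members with the widest gap that were higher with AP-2 and at 5 CPM or more in all 4 libraries with AP-2 (rows), with 1 point per RT-112 library, gray without AP-2, blue labelled AP-2α, orange labelled AP-2γ, circles after the blank control and triangles after WWOX. The gray points lie left of all colored points in each row, by 4.69 in SUSD2 and 0.72 in FOXO6.

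The members lower with AP-2 had smaller gaps, and 4 of 494 had a gap of at least 1 on the log2 scale against 20 of 959 that were higher. MMP2 (matrix metalloproteinase 2, a gelatinase that degrades type IV collagen, ENSG00000087245.13, chr16:55389700-55506691) was at 156.23 CPM in WK and 148.43 CPM in KK, and at 76.45 CPM in KA, 65.26 CPM in KC, 43.82 CPM in the library labelled WA and 52.87 CPM in WC. The controls were close to each other, and every library with AP-2 was far below both, with the lowest value in the library labelled WA. The difference was -1.38 ± 0.23 (log2, SE; limma adjusted p = 0.178), and it was the gene that fell in the fit with the block (adjusted p = 0.041). TIMP1, an inhibitor of such proteases, was at 185.64 CPM in WK and 157.85 CPM in KK, and at 76.85 to 126.77 CPM with AP-2 (difference -0.75 ± 0.21; limma adjusted p = 0.573).

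AHNAK2, a large scaffold protein, was at 17.59 CPM in WK and 17.51 CPM in KK, and at 7.63 CPM in KA, 7.11 CPM in KC, 5.65 CPM in the library labelled WA and 7.17 CPM in WC (difference -1.30 ± 0.19; limma adjusted p = 0.123, and 0.053 with the block). Its controls were nearly equal and the 4 libraries with AP-2 lay close together below them. GKN1, a secreted gastrokine of the stomach lining, was at 37.63 CPM in WK and 25.21 CPM in KK, and at 4.52 CPM in KA, 9.62 CPM in KC, 11.74 CPM in the library labelled WA and 11.82 CPM in WC (difference -1.74 ± 0.38; limma adjusted p = 0.376, and 0.0804 with the block). IVL (involucrin, a scaffold of the cornified envelope) was at 16.39 CPM in WK and 16.29 CPM in KK, and at 8.66 to 10.21 CPM with AP-2 (difference -0.80 ± 0.16; limma adjusted p = 0.364).

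The long noncoding RNA AATBC was at 7.26 and 6.81 CPM without AP-2 and 1.23 to 2.71 CPM with it (difference -1.57 ± 0.30; limma adjusted p = 0.292). FSTL4, a secreted follistatin-like protein, was at 70.31 and 69.32 CPM without AP-2 and 17.38 to 41.69 CPM with it. TPST1, a tyrosine sulfotransferase of the Golgi, was at 18.39 and 25.7 CPM and 7.96 to 10.58 CPM, COL4A4, a chain of type IV collagen, at 11.08 and 14.32 CPM and 4.47 to 7.11 CPM, and STAT5A, a transcription factor of cytokine signaling, at 5.82 and 5.66 CPM and 2.29 to 3.58 CPM. None of these 5 was called in limma or with the block. CPQ, TRBV30, TNNC1, AFAP1L2, USP40 and FOXL1 complete the 15 with the widest gap, and their differences were -0.85 to -1.67.

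**Figure D3:**
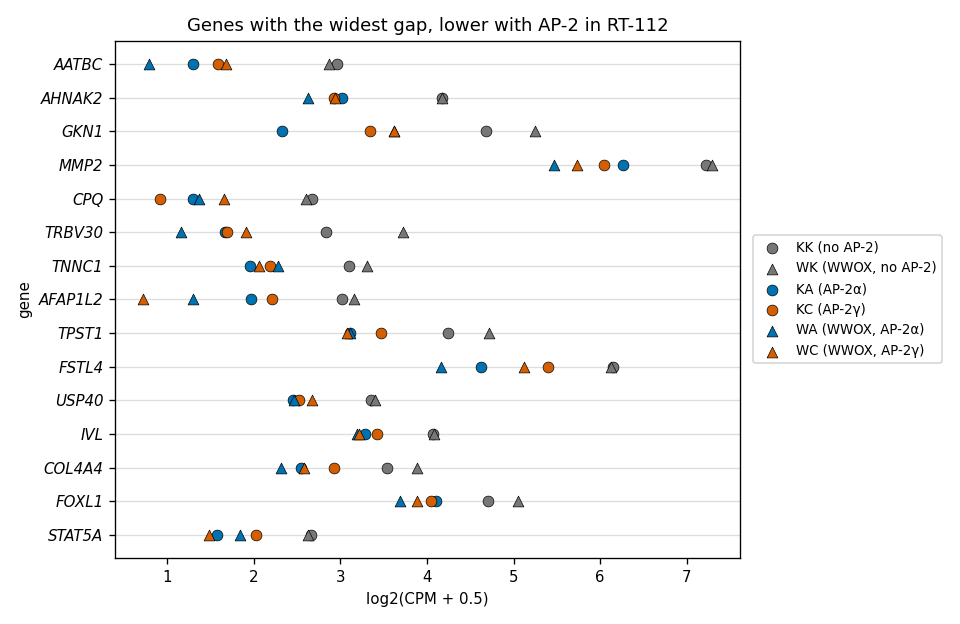
log2(CPM + 0.5) (horizontal axis) of the 15 members with the widest gap that were lower with AP-2 and at 5 CPM or more in both libraries without AP-2 (rows), with points as in the plot of the higher members. The gray points lie right of all colored points in each row, by 1.19 in AATBC and 0.59 in STAT5A.

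Most members differed little. The median difference was 0.45 (log2) over the 959 higher members, 47 of which reached 2-fold, and -0.35 over the 494 lower members, 22 of which reached 2-fold, beside a median of 0 over all genes tested. The 4 libraries did not contribute equally, since the library labelled WA held the highest value of 365 higher members, KC of 287, WC of 215 and KA of 92, and the lowest value of 180 lower members, against 153 in WC and 49 in KC, the fewest. The last gene inside the limit was BOP1 on the higher side (85.71 CPM in WK against 85.74 CPM in the library labelled WA) and BCL7C on the lower side (148.15 CPM in KK against 148.06 CPM in WC), whereas ATR had the same value in KK and WC (4.82 CPM) and lay just outside on the higher side. At the filter, ACER3 passed with 5 CPM in KA and GPATCH1 did not with 4.99 CPM in KK. The split of 959 against 494 (66% higher) became 856 against 703 (54.9%) after TMM scaling and 818 against 636 (56.3%) after quantile normalization. Without KC it became 1083 against 1532 (41.4% higher), so the larger side changed. Of the members, 40 higher and 12 lower genes had the same 6 values as another gene and cannot be told apart from it.

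Gene lists were described by the number of members among the genes tested, beside 10.3% higher and 5.33% lower over all genes. Of 18 basal and squamous genes tested, 5 were lower (27.8%) and 0 were higher, with a median difference of -0.25. TP63, the basal lineage factor, was at 90.67 CPM in WK and 84.32 CPM in KK, and at 51.25 CPM in KA, 64.13 CPM in KC, 56.29 CPM in the library labelled WA and 47.44 CPM in WC (difference -0.68 ± 0.17; limma adjusted p = 0.467). KRT5, the basal keratin, was at 29.75 and 48.41 CPM without AP-2 and 17.72 to 26.83 CPM with it (difference -0.81 ± 0.24; limma adjusted p = 0.627), and S100A2, a calcium-binding protein of basal cells, was at 5075.44 and 7573.57 CPM and at 3297.81 to 4893.07 CPM (difference -0.74 ± 0.22; limma adjusted p = 0.615). TRIM29, a tripartite motif protein of stratified epithelia, was at 288.82 and 281.42 CPM, and at 212.35 to 264.7 CPM with AP-2. COL17A1, named after its values were seen, made up the fifth. The count was 4 of 18 after TMM scaling, 5 after quantile normalization and 7 without the library labelled WA. KRT17, CD44, EGFR and the laminin genes of the list overlapped between the groups. No gene of the list was called, and 4 were lower at an unadjusted p under 0.05. The lower median did not recur in the other lines, where it was 0.56 in HT-1376 and 0 in CAL-29.

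Of 21 luminal genes tested, 3 were higher (14.3%) and 1 was lower (4.76%), with a median of 0. PPARG, a nuclear receptor that drives luminal fate, was at 12.58 and 12.91 CPM without AP-2 and 14.99 to 16.4 CPM with it, a difference of 0.30 ± 0.15 with an adjusted p of 0.853 in limma. ERBB2 and KRT18 were members by a gap of 0.01 and no longer were after TMM scaling. SNAI2, a repressor of epithelial genes, was lower (31.3 and 35.67 CPM without AP-2, 19.56 to 23.53 CPM with it; difference -0.65 ± 0.16, limma adjusted p = 0.467), and L1CAM and SNAI2 were the members among 15 genes of epithelial-mesenchymal transition.

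Of 16 tight junction genes tested, 5 were higher (31.2%) and 1 was lower (6.25%). CLDN3, a sealing claudin, was at 3.27 CPM in WK and 2.83 CPM in KK, and at 9.21 CPM in KA, 13.31 CPM in KC, 11.74 CPM in the library labelled WA and 8.86 CPM in WC (difference 1.65 ± 0.23; limma adjusted p = 0.112, and 0.0464 with the block). CLDN3 also passed the 5 CPM filter only through libraries with AP-2, so its call with the block is a description. CLDN4 was at 324.78 and 300.43 CPM without AP-2 and 369.92 to 539.23 CPM with it, and CLDN7 at 222.45 and 239.44 CPM and 258.49 to 404.24 CPM, both highest in the library labelled WA and neither called. CLDN12 passed the 5 CPM filter only in that library. CLDN1, the claudin of stratified epithelium, lay on the other side with 39.39 and 37.08 CPM without AP-2 and 20.31 to 32.67 CPM with it (difference -0.57 ± 0.21; limma adjusted p = 0.73). The count higher was 5 under both scalings and 4 without the library labelled WA. The median difference over the list was 0.14, beside 0.1 in HT-1376 and -0.55 in CAL-29.

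Of 12 heat shock genes tested 3 were higher (25%) and 0 were lower, with a median difference of 0.31. Of 17 genes of the unfolded protein response 4 were higher (23.5%) and 0 were lower, but the median over the 17 was -0.11. HSPH1, a nucleotide exchange factor of HSP70, was at 11.05 CPM in WK and 12.91 CPM in KK, and at 21.41 CPM in KA, 23.52 CPM in KC, 30.3 CPM in the library labelled WA and 28.76 CPM in WC (difference 1.08 ± 0.20; limma adjusted p = 0.274, and 0.12 with the block). HSP90B1, the HSP90 of the endoplasmic reticulum, was at 55.63 and 44.6 CPM without AP-2 and 74.92 to 91.78 CPM with it (difference 0.74 ± 0.16; limma adjusted p = 0.376). HSPD1, HSPA8, CANX, HERPUD1 and SEL1L were members with differences of 0.34 to 0.69, none of them called. These 2 counts of higher genes were 3 and 4 under both scalings and without the library labelled WA. After TMM scaling 1 gene of the unfolded protein response was lower. The medians in HT-1376 and CAL-29 were 0.23 and -0.21 for heat shock, and 0.11 and 0.56 for the unfolded protein response.

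Of 20 genes of glycolysis and hypoxia, 5 were higher (25%) and 0 were lower. The median difference over the list was 0.06, beside 0.15 in HT-1376 and -0.25 in CAL-29. CA9, a carbonic anhydrase induced by hypoxia, was at 4.57 CPM in WK, 0.83 CPM in KK, 12.52 CPM in KA, 5.99 CPM in KC, 27.61 CPM in the library labelled WA and 31.23 CPM in WC. Its difference was 2.67 ± 0.72 with a limma adjusted p of 0.573, and of 0.0139 with the block. CA9 also passed the 5 CPM filter only through libraries with AP-2, so its call with the block is a description. SLC2A1, the glucose transporter GLUT1, was at 403.12 and 445.33 CPM without AP-2 and 485.52 to 591.74 CPM with it. The count higher was 4 after TMM scaling and 2 after quantile normalization, where ALDOA and PDK1 were among those no longer separated. After TMM scaling, and also without the library labelled WA, 1 gene of the list was lower. DDIT4, an inhibitor of mTORC1 on the list of ATF4 targets, was at 102.72 and 100.25 CPM without AP-2, and at 155.1 CPM in KA, 126.56 CPM in KC, 566.34 CPM in the library labelled WA and 295.63 CPM in WC, so its high values lay in the libraries with both WWOX and AP-2 labels.

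Of 14 genes of FGF signaling and ERK feedback, 4 were higher (28.6%) and 1 was lower (7.14%). The median difference over the list was 0.21, beside 0.47 in HT-1376 and 0.81 in CAL-29. DUSP4, a phosphatase of ERK, was at 6.81 and 7.46 CPM without AP-2 and 11.05 to 16.32 CPM with it (difference 0.94 ± 0.20; limma adjusted p = 0.376), and SPRY4, an inhibitor of the pathway, at 3.38 and 4.03 CPM and 4.42 to 6.41 CPM. FGFR2, a receptor, was lower (7.81 and 9.91 CPM without AP-2, 4.02 to 6.95 CPM with it). Of 20 genes chosen as reported AP-2 targets, 4 were higher (20%) and 2 were lower (10%), with a median of -0.04. Among these, MUC1, an apical mucin, was at 0.72 and 1.31 CPM without AP-2 and 2.21 to 7.96 CPM with it, IGFBP5, which binds insulin-like growth factors, was at 0.72 and 1.36 CPM and 1.89 to 11.81 CPM, and its relative IGFBP3 was lower (1429.59 and 1665.83 CPM, against 788.75 to 1263.42 CPM). None of these was called. The other lower target was MMP2, with a difference of -1.38, which was called with the block (limma adjusted p = 0.041) and not without it (0.178).

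The remaining lists lay nearer the shares over all genes or had few members. Of 24 replication and mitosis genes 4 were higher (16.7%) and 0 were lower, but the median over the 24 was -0.12. The count higher was 3 after quantile normalization, and 1 gene was lower after TMM scaling. TOP2A, the topoisomerase of dividing cells, was among the higher (14.9 and 11.87 CPM without AP-2, 20.68 to 25.81 CPM with it). Of 20 ATF4 targets 3 were higher, and 2 each of 18 NRF2 targets, 18 AP-1 and immediate early genes, 15 TGF-β and BMP genes and 17 cholesterol and fatty acid genes, the last with 1 lower. Of 20 matrix and protease genes 2 were higher and 3 were lower, of 10 cytokine genes 1 and 2, and of 11 interferon, 16 WNT, 12 Eph and ephrin and 14 cornified envelope genes 1 and 1 each. Of 15 p53 targets, 26 oxidative phosphorylation, 30 ribosomal protein and 8 EGF ligand and ERBB genes 1 each was higher and 0 lower, and of 10 MHC class I genes, 9 AP-2 partners and 3 tested markers of other cell types 0 were members.

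**Figure D4:**
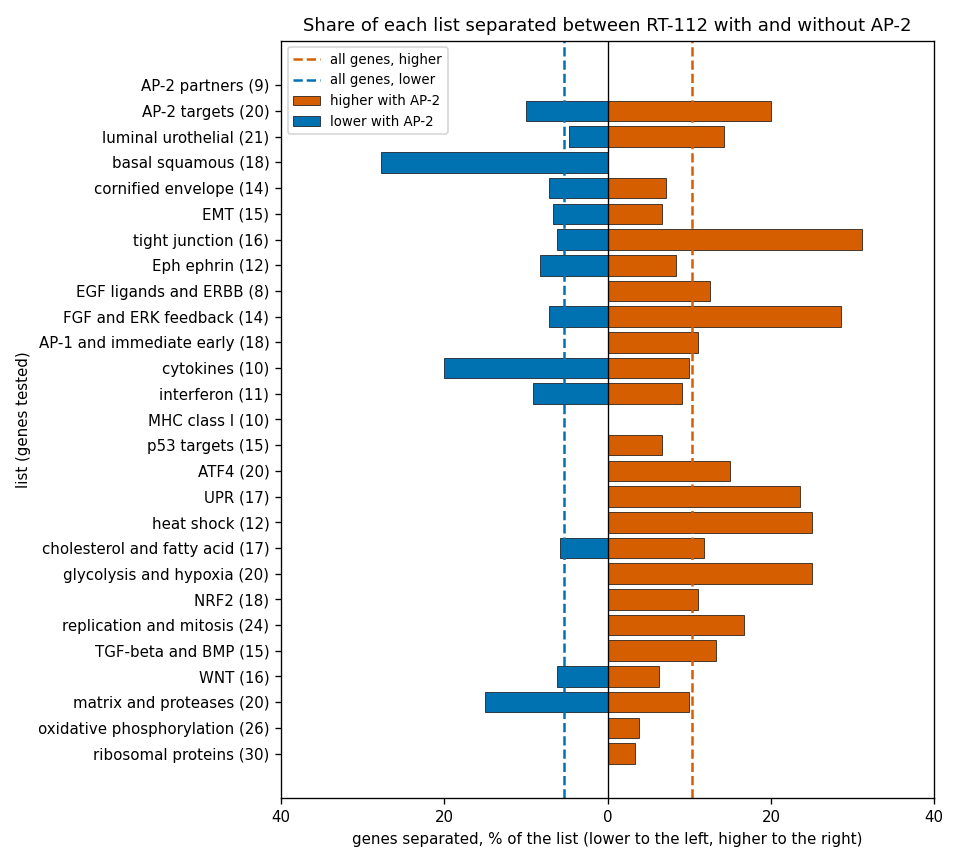
Share of the tested genes of 27 lists (rows, number tested in brackets) that were members, in % of the list, with lower members to the left in blue and higher members to the right in orange. Dashed lines give the shares over all 9267 genes, 5.33% and 10.3%, and the basal squamous list stands out on the left at 27.8% and tight junctions on the right at 31.2%.

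The libraries labelled AP-2γ (KC, WC) were set against those labelled AP-2α (KA, WA) with the first transduction held. In limma 0 of 9267 genes differed at an adjusted p under 0.05 (smallest 0.999), with 103 higher (1.11%) and 92 lower (0.993%) in AP-2γ at an unadjusted p under 0.05, and the library labelled WA carries raised TFAP2C. Both values labelled AP-2γ lay above both labelled AP-2α in 11.9% of genes and below in 5.87%. L1CAM was higher by 1.17 (log2) and TNC, a matrix glycoprotein, by 1.68, with 16.14 CPM in KC and 10.43 CPM in WC against 3.79 CPM in KA and 3.63 CPM in the library labelled WA. CSTA, a cystatin of the cornified envelope, was lower by the same comparison (-1.37), with 10.69 CPM in KC and 7.72 CPM in WC against 36.36 CPM in KA and 16.1 CPM in the library labelled WA, and PTHLH, the parathyroid hormone-related protein, differed by -0.87.

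Whether the AP-2 difference was the same after WWOX as after the blank control was tested as an interaction. In limma 2 genes differed at an adjusted p under 0.05 (0.0216%), both with a lower AP-2 difference after WWOX, and 0 with a higher one. At an unadjusted p under 0.05, 844 (9.11%) had a lower AP-2 difference after WWOX and 334 (3.6%) a higher one. KRT1, the suprabasal keratin of the epidermis, was at 0.72 CPM in KK, 31.3 CPM in KA and 29.34 CPM in KC, and at 19.55 CPM in WK, 6.43 CPM in the library labelled WA and 5.85 CPM in WC. KA and KC thus lay above their control KK, while WC and the library labelled WA lay below their control WK. The interaction was -6.25 ± 0.35 (log2, SE; limma adjusted p = 0.000511). PI3 (elafin, an elastase inhibitor of squamous epithelium) was at 6.65 CPM in KK, 52.14 CPM in KA and 42.54 CPM in KC, and at 49.23 CPM in WK, 26.33 CPM in the library labelled WA and 30.68 CPM in WC, with an interaction of -3.52 ± 0.32 (limma adjusted p = 0.0131). The fit has 2 residual degrees of freedom, which come from KA against KC and from the library labelled WA against WC. KK and WK are 1 library each and add nothing to the spread, so these p-values take the variation of the controls to be like that between the libraries with AP-2, and they do not separate an interaction from a difference between 2 single controls. Neither gene was called without the filter on low values. The median interaction over all genes was -0.13, and -0.05 after TMM scaling and 0.02 after quantile normalization.

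The other 2 lines were not used by the rule. Of the 959 higher members, 879 were tested in HT-1376 and 664 of them (75.5%) were higher with AP-2 there, beside 53.8% of all genes tested in both, and 42 (4.78%) had all 4 values above both controls, beside 2.17%. In CAL-29, 217 of 917 (23.7%) were higher, beside 36% of all, and 210 of 913 (23%) without its KC library, beside 37.5%. Of the lower members 236 of 432 (54.6%) were lower in HT-1376, beside 46.2%, and 321 of 479 (67%) in CAL-29, beside 64%. These shares depend on which control is used, an alternative chosen after seeing the data. The share of higher members that were higher in HT-1376 was 73.3% without its KK (beside 54.5% of all) and 55.7% without its WK (beside 44%). In CAL-29 it was 44.8% without its KK (411 of 917, beside 39.5%) and 20.9% without its WK (beside 38%), so the low share of CAL-29 rests on KK. The share of lower members that were lower in HT-1376 was 64.8% without its KK (beside 45.5%) and 49.1% without its WK (beside 56%). For CAL-29 the same shares were 69.5% (beside 60.5%) and 56.8% (beside 62%). Without WK the lower members thus lay under the share of all genes in both lines. Genes are not independent, and the shares are a description. 0 genes were members in the same direction in all 3 lines, and in limma on either line alone 0 genes were called, with 88 higher (0.797%) and 10 lower (0.0906%) at an unadjusted p under 0.05 in HT-1376 and 60 (0.48%) and 73 (0.584%) in CAL-29. Over all genes tested in each line, 2.69% had all 4 values with AP-2 above both controls and 2.32% below in HT-1376, and 2.48% and 4.17% in CAL-29.

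Among members of at least 2-fold, 21 of 24 higher ones tested in HT-1376 lay on the same side, beside 53.8% of all genes. In CAL-29 it was 14 of 29, beside 36%. Of the lower ones 2 of 13 did so in HT-1376, beside 46.2%, and 14 of 16 in CAL-29, beside 64%. The last was 9 of 16 without the CAL-29 KC library, beside 62.5%. These counts were not repeated with a control left out. In CAL-29 L1CAM was at 6.69 CPM in WK and 15.08 CPM in KK, against 17.99 to 79.85 CPM with AP-2, and KLK5 was at 0.06 and 0.34 CPM in the same order, against 6.87 to 54.88 CPM. Both were thus separated upward there, as in RT-112, with differences of 2.03 and 4.55 (log2). In HT-1376 the groups overlapped for both, since the controls were far apart, with L1CAM at 10.09 CPM in WK and 94.97 CPM in KK (29.01 to 224.35 CPM with AP-2) and KLK5 at 66.06 CPM in WK and 1.84 CPM in KK (4.47 to 69.91 CPM with AP-2). QPRT was also separated upward in CAL-29, at 14.86 CPM in WK and 6.67 CPM in KK, against 15.6 to 40.6 CPM with AP-2 (difference 1.43). In HT-1376 its groups overlapped, with a mean difference of 0.21. KLK8 and AOC1 overlapped in both lines, with positive mean differences of 1.62 to 2.19.

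For the lower members the values in the other lines were as variable. In HT-1376 MMP2 was at 30.97 CPM in WK and 0.13 CPM in KK, against 2.72 to 38.18 CPM with AP-2, so its mean difference of 1.34 there rests on KK. AHNAK2 was at 26.78 CPM in WK and 3.88 CPM in KK, against 10.28 to 45.14 CPM, and overlapped as well. KRT5 was at 2.06 CPM in WK and 0.2 CPM in KK, against 3.83 to 10.74 CPM, and was separated upward in HT-1376, whereas it was lower in RT-112. CLDN3 and PHGR1, higher in RT-112, were under the filter in HT-1376 and overlapped in CAL-29, with mean differences of -1.36 and -1.4. PHGR1 passed the filter in CAL-29 only through WK (7.07 CPM, and 0.27 CPM at most in the other 5 libraries).

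The difference between RT-112 and the mean of the other lines was tested as an interaction over all 18 libraries. Of 13022 genes 1 had a higher AP-2 difference in RT-112 at an adjusted p under 0.05 in limma (0.00768%) and 0 a lower one, beside 46 (0.353%) and 54 (0.415%) at an unadjusted p under 0.05. That gene was SUSD2, with an interaction of 5.38 ± 0.60 (log2, SE; limma adjusted p = 0.0012), and in the 12 libraries of the other lines it was at 0 to 0.72 CPM. SUSD2 passed the filter only through the RT-112 libraries with AP-2, the values that the rule used, so this is a description of SUSD2 and no independent test. It was no longer called with a pseudocount of 0.05 CPM (limma adjusted p = 0.282). For other members a difference between the lines was not shown by this test.

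**Figure D5:**
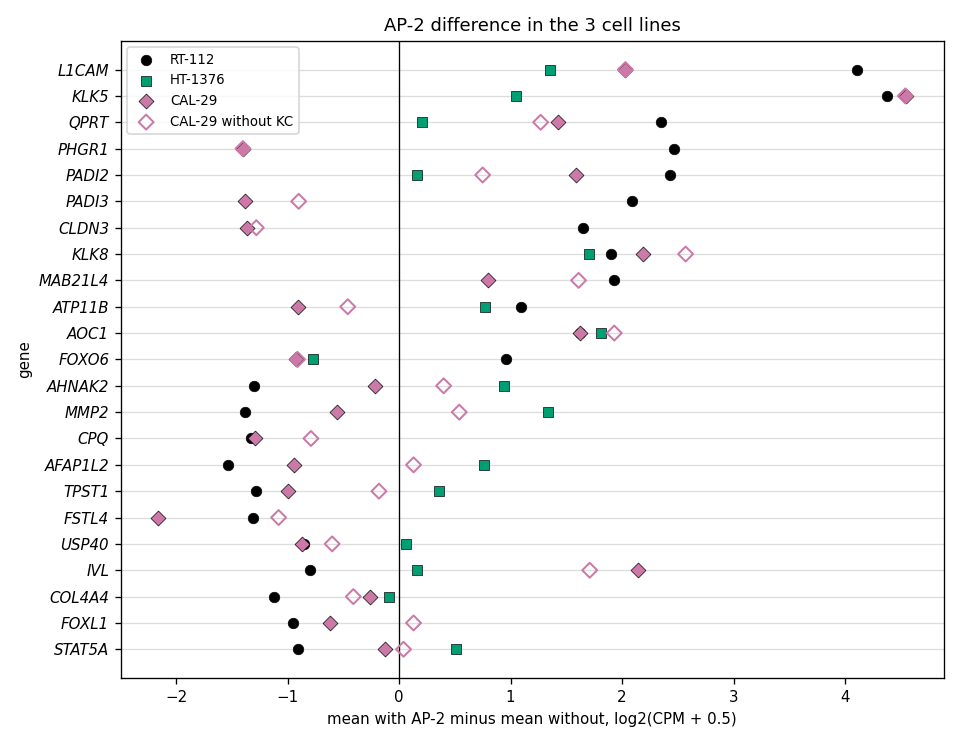
Mean with AP-2 minus mean without, on log2(CPM + 0.5) (horizontal axis), of the 23 genes among the 30 with the widest gap in RT-112 that passed the filter in at least 1 other line (rows), with RT-112 as black circles, HT-1376 as green squares, CAL-29 as pink diamonds and CAL-29 without its KC library as open diamonds. The means hide overlapping groups in the other lines, as for MMP2 in HT-1376, while L1CAM, KLK5 and QPRT are separated upward in RT-112 and CAL-29.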

How the data were processed

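CAGE libraries of total RNA from 6 RT-112 variants (18 libraries in 3 lines) were read as single ends of 75 nt. The authors mapped reads to hg38 with BWA and then HISAT2 2.0.5 (the version also stands in the submitters' processing notes), grouped tags into clusters (Paraclu, RECLU), removed clusters that did not recur between replicates, and deposited a CPM value for every gene in every library. The annotation behind the genes and the total behind the CPM are not given in the sources used here. Columns summed to 941717.7 to 946589.4 CPM in RT-112.

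Groups were taken from the sample titles. Identifiers were joined to GENCODE 44 on GRCh38 without their version (16553 of 16575 genes, 11685 with the same version). In all 18 columns, values fell on whole multiples of what 1 read is worth (in RT-112 99.97% to 99.99% within 0.0051 CPM, against 17.4% to 23.8% with a wrong step). The step of each column, RT-112 WC among them, was set in the last pass with all genes. Reads were thus recovered for depth and count tests. No 2 RT-112 libraries agreed within sampling noise (smallest chi-square per degree of freedom 20.4).

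Values were analysed as log2(CPM + 0.5), on which low genes show smaller differences, with limma 3.58.1 (trended variance, Benjamini-Hochberg) in R 4.3.3. The study used limma-voom without a block. The settings varied were the pseudocount (0.05 and 2 CPM), the filter (none, or 5 CPM in 2 libraries), TMM, quantile normalization, no trend, voom, edgeR 4.0.16, DESeq2 1.42.0, the first transduction as a block, and each library left out. Deviations from group means of libraries with the same first transduction correlated by 0.08 to 0.43 across genes. Pairs with AP-2 that differ in the first transduction correlated by -0.65 to -0.74. Deviations cancel within a group, so those of KK and WK mirror each other by construction (-1). These correlations are therefore no independent support for the block, and the pairing comes from the order of the transductions in the labels. Fits were tested on simulated data.

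The genes named were the introduced genes, those past an adjusted p of 0.05, the 15 widest gaps in each direction with 5 CPM in every library of the higher group, up to 4 members per list and direction, the genes with an interaction, and up to 5 genes in each direction with the widest gap between the AP-2γ and AP-2α labels. Members and lists were chosen with earlier results of these data known. Promoters came from RefSeq. The gene just outside the limit on the lower side is not reported here. Other tools were Python 3.11.15, NumPy 2.4.6, pandas 2.3.3, SciPy 1.17.1 and matplotlib 3.10.9.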

Additional observations from a re-analysis of the deposited data

Results flagged for a closer look

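In 9 of the 107 genes named by rule, 1 of the 4 libraries with AP-2 lay far from the other 3 by Dixon's test. Chance alone gives such a library in about 1 of 20 groups, and the 9 were not tested against that rate. ATP11B (13.15 CPM) and CCNA2 (8.94 CPM) stood apart in KA, TPST1 in KC (10.58 CPM), CLDN12 (5.2 CPM), NR4A1 (5.37 CPM) and FZD2 (9.5 CPM) in the library labelled WA, and HSPD1 (13.68 CPM), RPS2 (200.14 CPM) and S100A2 (4893.07 CPM) in WC. CLDN12 and NR4A1 were under 5 CPM in the other libraries and would not be tested without the library labelled WA.

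In KRT1 and PI3 the AP-2 difference after WWOX minus that after the blank control was -6.25 and -3.52 on the log2 scale (limma interaction, adjusted p 0.000511 and 0.0131), where each control is 1 library and adds nothing to the spread. The AP-2 difference of SUSD2 was larger in RT-112 than in the other lines by 5.38 (limma adjusted p 0.0012), a description only, since SUSD2 passed the filter through the RT-112 libraries with AP-2. In the library labelled WA, TFAP2C was at 179.87 CPM against 56.2 CPM in WK, and TFAP2A at 25.32 CPM against 20.31 CPM. SUSD2, L1CAM and QPRT were higher than in both controls in that library as in KA, KC and WC.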

How the results depend on the processing

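The number of genes called for AP-2 in RT-112 was 3, and it was 2 to 4 with no filter, 5 CPM in 2 libraries, TMM, quantile normalization and no trend. It was 5 with a pseudocount of 0.05 CPM, 0 with 2 CPM, 15 with the first transduction as a replicate block, 0 with limma-voom, 0 with edgeR, 24 with edgeR and the block and 85 with DESeq2, and 0 to 6 with 1 library left out. SUSD2, QPRT and L1CAM kept their direction in all of these, with adjusted p from 0.00182 to 0.436 over the alternatives of limma that leave out a library. The 1453 separated genes became 2465 with no filter, 72 with a gap of at least 0.5, 2458 when each library was set against the control of its own first transduction (a choice made after seeing the data), and 1722 to 3314 with 1 library left out, which by construction leaves fewer values to separate. Without KC, 1083 were higher and 1532 lower, so the larger side changed. TMM kept 802 of the 959 higher and 459 of the 494 lower genes, and quantile normalization kept 721 and 379. The difference between lines was called in 0 genes with a pseudocount of 0.05 CPM, in 2 with no filter and in 2 without CAL-29 KC (SUSD2 and ADORA1), and in 1 with the replicate block, and the median over genes moved from 0.09 to -0.02 after TMM and 0 after quantile normalization. The interaction with WWOX was called in 0 genes with no filter. With 1 control of CAL-29 left out, 192 to 411 of the higher members were higher there (217 with both). AP-2γ against AP-2α gave 0 calls under all alternatives. Of 1736 values of single genes under alternatives, 0 changed direction. Nearly all of these values belong to members, whose groups did not overlap in the same libraries. A kept direction is therefore largely set by the rule, also for SUSD2, QPRT and L1CAM, and is no support. The cause of the changes in the counts above was not tested. Each variant has 1 library, and a gene at 5 CPM rests on fewer than 100 reads.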
